A study of Schizosaccharomyces pombe with 12 samples.

Results

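The hexose transporter family of fission yeast was followed through RNA sequencing of 12 cultures of *Schizosaccharomyces pombe*. Its 8 genes, *ght1* (SPCC548.07c), *ght2* (SPBC4B4.08), *ght3* (SPAC1F8.01), *ght4* (SPBC1683.08), *ght5* (SPCC1235.14), *ght6* (SPCC1235.13), *ght7* (SPBC1348.14c) and *ght8* (SPCC548.06c), were taken by their identifiers from the 7004 genes of the count table, and all 8 were found. The study made the libraries to compare cells lacking either of the telomerase factors Thc1 and Bmc1 with wild type, with 3 cultures of each of 4 haploid strains, each grown in 250 ml of rich medium at 32 °C and harvested in log phase. The *thc1*Δ strain is h-, has the markers *his3-D1*, *ura4-D18*, *leu1-32* and *ade6-M216*, and carries *his3* in place of *thc1*. The *bmc1*Δ strain is h+, has *his3-D1*, *ura4-D18*, *leu1-32* and either *ade6-M210* or *ade6-M216*, carries natMX6 in place of *bmc1* and came from a sporulated diploid. Its wild type is h+ with the same markers (here the h+ wild type), and the wild type of *thc1*Δ is the h- laboratory strain from which the deletion was made (here the h- wild type). The markers *ura4-D18*, *leu1-32* and *his3-D1* are thus shared by all 4 strains, except that *thc1*Δ has *his3* back, and each deletion was represented by 1 strain. Mating type and descent differ between the pairs and cannot be told apart in these data. The loss of *thc1* and the return of *his3* in *thc1*Δ cannot be told apart either.

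Yeast cells take up sugar through hexose transporters, membrane proteins that carry glucose and related sugars into the cell. In fission yeast the *ght* genes encode this family, and Ght5 is the high-affinity glucose transporter on which growth in scarce glucose depends. Its gene is repressed in plentiful glucose by the zinc finger protein Scr1, and the protein reaches the cell surface under the control of the TORC2 kinase complex and its target Gad8. Among the other members, Ght6 is known for a preference for fructose and Ght3 for the uptake of gluconate.

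In the RefSeq annotation of assembly ASM294v3, each *ght* gene is a single exon. *ght3* lies on chromosome I, *ght2*, *ght4* and *ght7* on chromosome II, and *ght1*, *ght5*, *ght6* and *ght8* on chromosome III, where *ght8* and *ght1* are next to each other and 2 protein-coding genes separate *ght6* and *ght5*. The coding sequences of *ght5* and *ght8* were the closest pair, with 92.2% identical positions over the alignment. *ght3* and *ght4* followed with 81.8%, and *ght1* matched *ght5* and *ght8* at 78.6% each. The most distant pair, *ght3* and *ght6*, had 62.1%. The reads were 84 nt long, and 21.5% of the 84-nt windows of *ght5* (426 of 1981) occurred elsewhere in the genome without a mismatch, all of them in *ght1* or *ght8*. The share was 17.6% for *ght8*, 8.88% for *ght3*, 4.22% for *ght4*, 3.5% for *ght1*, and 0 for *ght2*, *ght6* and *ght7*. The study's methods speak of uniquely aligned reads but do not say whether reads that fit several places were left out of the counts. The counts of *ght5* and *ght8*, and to a lesser degree those of *ght3*, *ght4* and *ght1*, carry that uncertainty.

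**Figure D1:**
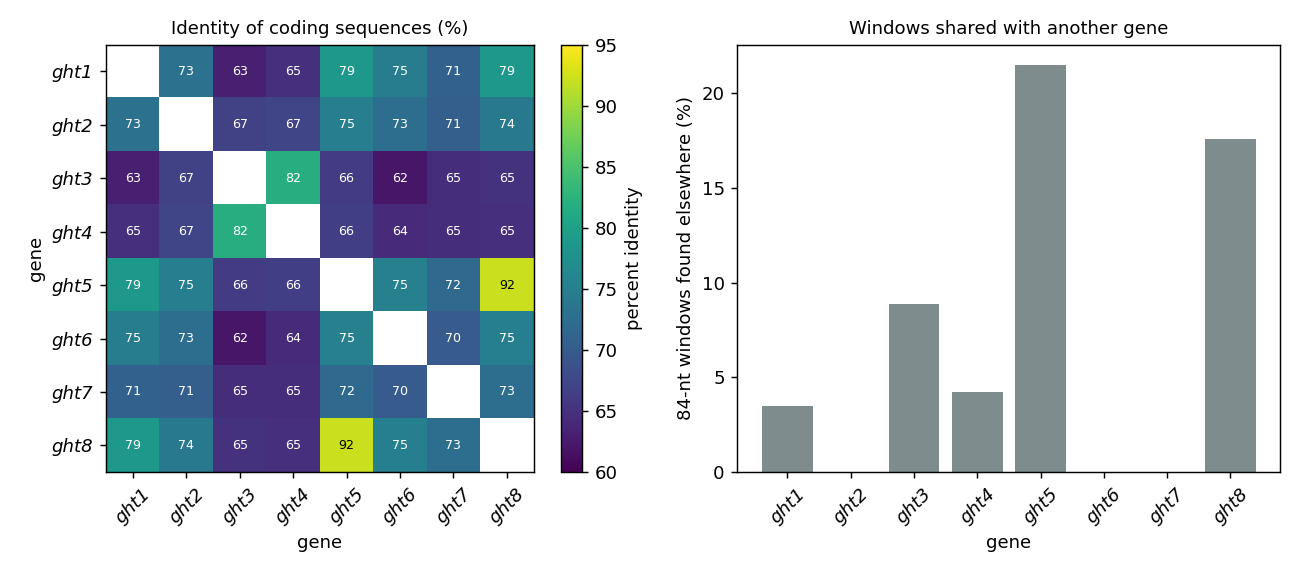
Sequence shared within the family, from the ASM294v3 genome. Left, percent of identical positions between the coding sequences of each pair of genes, from 62.1% for *ght3* and *ght6* to 92.2% for *ght5* and *ght8*. Right, percent of each gene's 84-nt windows found without a mismatch elsewhere in the genome, highest for *ght5* at 21.5% and 0 for *ght2*, *ght6* and *ght7*.

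The 12 libraries held between 33.57 M and 40.33 M counts on genes (M, 1000000 counts). Read counts of *thc1* were lower in *thc1*Δ (20.5 CPM, the count scaled to a normalised library size of 1000000) than in the h- wild type (50.5 CPM), and those of *bmc1* were lower in *bmc1*Δ (15.8 CPM) than in the h+ wild type (25.5 CPM), so reads remained on both annotated genes. The study replaced the open reading frames, checked both deletions by PCR and reported no RNA sequencing reads at the deleted loci. Where the remaining reads lay was not examined here. The telomerase RNA *ter1* fell in both deletions, to 54.6 CPM in *thc1*Δ against 155 CPM in the h- wild type, and to 83.95 CPM in *bmc1*Δ against 151 CPM in the h+ wild type. The marker *ura4*, deleted in all strains, had 0 or 1 count in every library, whereas *his3* was at 44.9 CPM in *thc1*Δ and 17.7 CPM in the h- wild type. None of 5 M-cell and 2 P-cell genes was at 0 in any group. The M-cell genes summed to 103 to 111 CPM in *thc1*Δ, 81.3 to 117 CPM in *bmc1*Δ, 86.0 to 99.7 CPM in the h+ wild type and 114 to 117 CPM in the h- wild type, and the P-cell genes to 18.8 to 22.3, 20.2 to 22.5, 23.2 to 24.8 and 20.8 to 22.2 CPM in the same order. Only 1 M-cell gene, the pheromone precursor *mfm2*, differed at least 2-fold between the wild types, with 2.06, 8.63 and 1.54 CPM in h+ and 20.6, 22.7 and 22.8 CPM in h-. Replicate 2 of h+ stood above its sisters, and without it the h+ mean was 1.80 CPM, against 4.075 CPM with it. *mam1*, another M-cell gene, was at 80.8, 84.2 and 77.8 CPM in h+ and 86.8, 87.4 and 84.6 CPM in h-. Apart from *mfm2*, no M-cell or P-cell gene of the list differed 2-fold between the labelled mating types, so the mating type is given here as the genotypes state it and was not settled by these genes. Replicate 1 of *bmc1*Δ stood apart, with 0.701% of 6279 genes at least 2-fold above the mean of its 2 sister cultures and 0.812% at least 2-fold below it. The shares were 0.271% and 1.00% for replicate 1 of *thc1*Δ and 0.287% and 0.764% for replicate 1 of the h+ wild type. Replicate 1 of *thc1*Δ had the widest distance from its own group (chi-square of 68.9 and 65.5 per degree of freedom against its sisters, and 2.95 to 39.6 for the other pairs).

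Per kilobase of exon, *ght8* was the most abundant member in every library. It was at 346 to 358 CPM per kb in *thc1*Δ, 470 to 573 in *bmc1*Δ, 546 to 578 in the h+ wild type and 414 to 418 in the h- wild type. *ght5* came next in *thc1*Δ (129 to 154 CPM per kb), *bmc1*Δ (128 to 270) and the h+ wild type (178 to 215), in each case above every value of *ght2* in the same group (90.9 to 120, 88.0 to 104 and 100 to 116 CPM per kb). The h- wild type had the other order. There *ght2*, at 82.9 to 84.1 CPM per kb, was above *ght5*, at 41.5 to 44.0 CPM per kb, with no overlap. *ght1* and *ght4* were lower than *ght2* in every library, and their own order changed as well. *ght1* was above *ght4* in the h+ wild type (12.2 to 17.6 against 9.66 to 11.8 CPM per kb) and below it in the h- wild type (2.60 to 3.08 against 6.31 to 6.69 CPM per kb). Their ranges overlapped in both deletions. Within single cultures, *ght1* was below *ght4* throughout *thc1*Δ (4.67, 5.08 and 6.37 against 6.21, 6.84 and 7.38 CPM per kb). It was above *ght4* throughout *bmc1*Δ (30.2, 11.7 and 9.59 against 17.6, 10.4 and 9.02 CPM per kb). *ght3*, at 0.983 to 3.84 CPM per kb over the 12 libraries, and *ght6* and *ght7*, at 0.146 to 3.42 and 0.343 to 0.702 CPM per kb, were the least abundant. *ght6* and *ght7* overlapped in all groups except the h- wild type, where *ght7* was higher. Orders per kilobase depend on the ASM294v3 exon lengths, while the annotation behind the counts is not stated. In CPM, *ght5* and *ght2* overlapped in *thc1*Δ (266 to 317 against 206 to 271). So did *ght1* and *ght4* in the h+ wild type (35.3 to 51.1 against 36.7 to 44.8 CPM).

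Summed over the family, the members gave 609 to 632 CPM per kb in *thc1*Δ, 710 to 1003 in *bmc1*Δ, 849 to 942 in the h+ wild type and 553 to 555 in the h- wild type. *ght8* made up 54.7 to 58.2% of this sum in *thc1*Δ and 74.8 to 75.4% in the h- wild type. Its share was 57.2 to 66.2% in *bmc1*Δ and 61.4 to 64.4% in the h+ wild type. The share of *ght5* was 21.2 to 25.0% in *thc1*Δ and 7.50 to 7.93% in the h- wild type, with 18.1 to 26.9% in *bmc1*Δ and 21.0 to 22.8% in the h+ wild type. The ratio of *ght5* to *ght8* per kb was 0.369 to 0.434 in *thc1*Δ, 0.273 to 0.471 in *bmc1*Δ, 0.326 to 0.372 in the h+ wild type and 0.0994 to 0.106 in the h- wild type. The h- wild type was therefore the group with the smallest part of *ght5*, and the other 3 groups overlapped with one another.

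**Figure D2:**
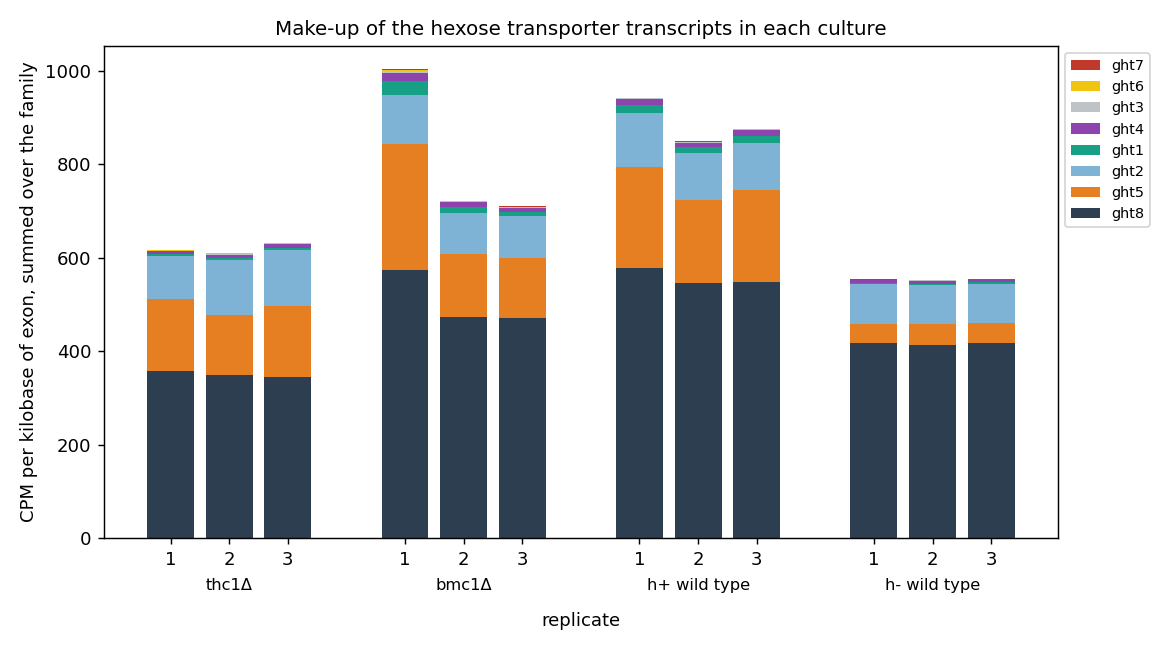
Transcripts of the 8 genes in each of the 12 cultures. Each bar is 1 culture and stacks the CPM per kilobase of exon of the members, *ght8* at the bottom. *ght5* takes 7.50 to 7.93% of the bar in the h- wild type and 18.1 to 26.9% in the other 9 cultures.

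The study's first comparison sets *thc1*Δ against its parent, the h- wild type, from which it differs in *his3* as well as in *thc1*. *ght5* was 3.34-fold higher in *thc1*Δ, *ght1* 1.90-fold and *ght2* 1.30-fold higher, and *ght8*, the most abundant member, fell to 0.842 of its wild-type level. *ght3*, *ght4*, *ght6* and *ght7* did not pass the test (adjusted *p* below 0.05 over all genes tested in edgeR). Thus 3 of the 8 members were higher, where 10.0% of the 6235 genes tested were higher, and 1 of 8 was lower, where 11.1% of genes were lower. With the study's additional limit of a 2-fold change, 1 member, *ght5*, was called higher, against 0.754% of the genes tested. Members had a median log2 fold change of 0.56, and all genes one of 0.00.

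For *ght5* the *thc1*Δ cultures gave 317, 266 and 310 CPM, against 85.7, 90.2 and 90.9 CPM in the h- wild type. The groups were far apart, with no overlap. The log2 fold change was 1.74 (SE 0.0653, adjusted *p* = 3.54e-06), and 0.160% of the genes tested had a larger one. It was 1.69 to 1.81 when any of the 6 libraries was left out. In RNA from whole cultures, more cells expressing a gene and more RNA per cell cannot be told apart. *ght5* is among the genes that the study itself listed from these libraries as raised in *thc1*Δ, so that this rise is not independent evidence of that listing.

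*ght1* was at 13.6, 14.8 and 18.5 CPM in *thc1*Δ and at 7.56, 8.13 and 8.96 CPM in the h- wild type. All *thc1*Δ cultures were above all wild-type cultures, with a log2 fold change of 0.92 (SE 0.126, adjusted *p* = 0.00217), just under the 2-fold limit. Without replicate 1 of *thc1*Δ it was 1.02 (adjusted *p* = 1.51e-05), so that 2 members were then called, and in a fit over all 12 libraries the adjusted *p* was 0.113. *ght2* was at 206, 263 and 271 CPM in *thc1*Δ and at 190, 190 and 188 CPM in the h- wild type. Its log2 fold change of 0.38 (SE 0.0952, adjusted *p* = 0.0281) was carried mostly by replicates 2 and 3 of *thc1*Δ, and leaving out any library except replicate 1 of *thc1*Δ took the adjusted *p* to 0.0802 to 0.0979.

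*ght8* moved the other way from *ght5*, its closest relative in sequence. It was at 899, 877 and 868 CPM in *thc1*Δ, against 1048, 1039 and 1047 CPM in the h- wild type. The groups did not overlap, and the replicates were tight (SD 16.3 and 5.15 CPM). The log2 fold change was -0.25 (SE 0.0337, adjusted *p* = 0.00213).

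*ght3* was at 2.23, 4.03 and 4.38 CPM in *thc1*Δ, against 1.84, 2.67 and 1.82 CPM in the h- wild type, and the groups overlapped. Its log2 fold change of 0.75 (SE 0.268) had an adjusted *p* of 0.0846, and of 0.000505 without replicate 1 of *thc1*Δ, where the log2 fold change was 0.99. *ght6* had 28, 24 and 28 counts in *thc1*Δ and 18, 19 and 11 counts in the h- wild type. The counts did not overlap, but at such low numbers the log2 fold change of 0.79 (SE 0.246) did not pass (adjusted *p* = 0.0558). *ght4* had log2 fold change 0.06 (SE 0.0686) and *ght7*, with 20 to 34 counts a library in *thc1*Δ and 27 to 31 in the h- wild type, 0.02 (SE 0.228).

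**Figure D3:**
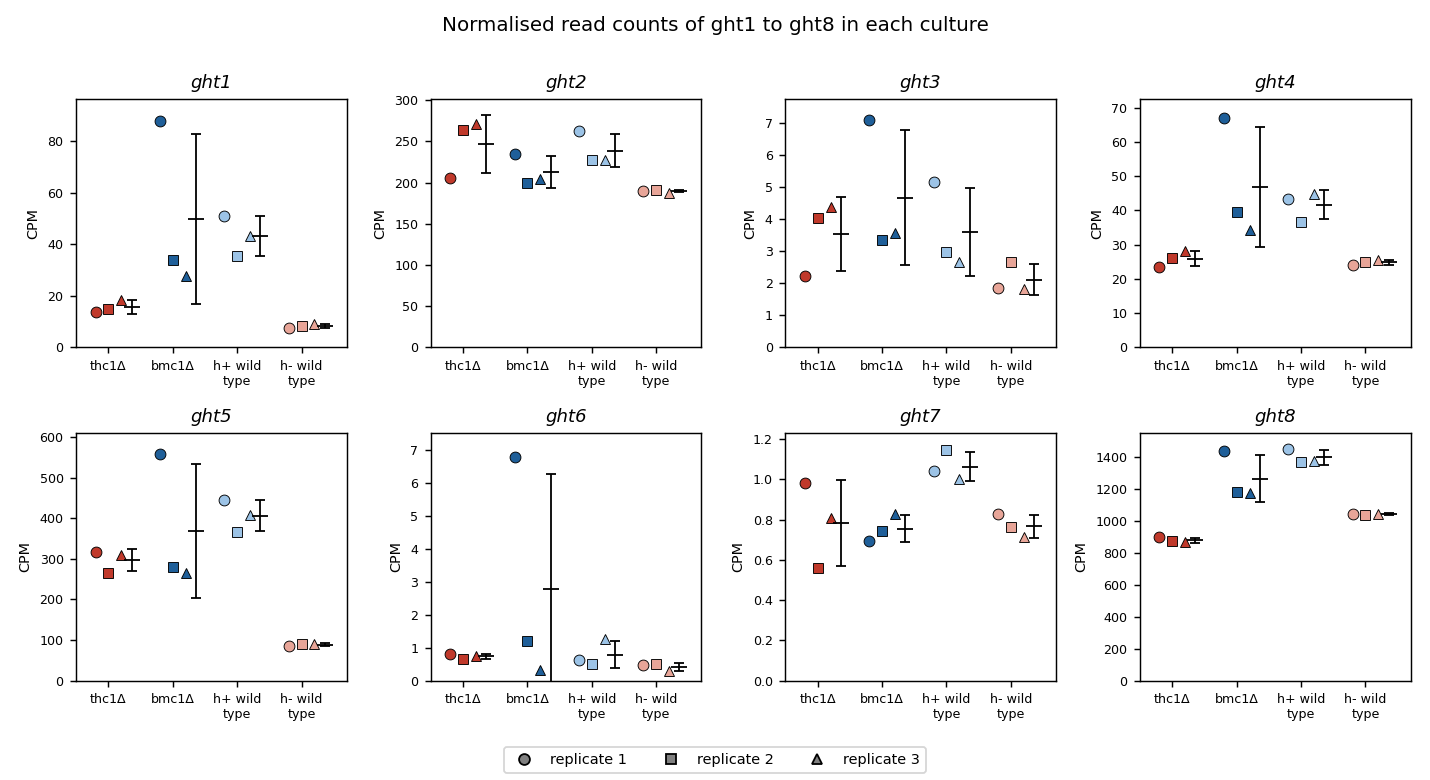
Normalised read counts (CPM, linear axes from 0) of the 8 genes. Points are single cultures, with a symbol for each replicate number, and bars are the mean and SD of 3 cultures, cut at 0 for *ght6* in *bmc1*Δ. *ght5* is at 85.7 to 90.9 CPM in the h- wild type and at 265 to 558 CPM in the other cultures, and replicate 1 of *bmc1*Δ is the highest point for *ght1*, *ght3*, *ght4*, *ght5* and *ght6*.

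The second comparison sets *bmc1*Δ against the h+ wild type. None of the 8 members passed the test in edgeR, where 0.0481% of the 6232 genes tested passed it in either direction. At an unadjusted *p* below 0.05 there were 478 genes, and 1 of them was a member, *ght7*. DESeq2 and limma-voom called 0 members as well. Members had a median log2 fold change of 0.01, and all genes one of 0.00.

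*ght5* was at 558, 281 and 265 CPM in *bmc1*Δ, against 444, 367 and 407 CPM in the h+ wild type. Replicate 1 of *bmc1*Δ was above all the wild-type cultures and replicates 2 and 3 were below all of them. The log2 fold change was -0.15 (SE 0.272, adjusted *p* = 0.927), and without replicate 1 it was -0.57 (SE 0.0822, adjusted *p* = 0.146). *ght1* had the same arrangement, with 87.8, 34.0 and 27.9 CPM in *bmc1*Δ and 51.1, 35.3 and 43.1 CPM in the h+ wild type. Its log2 fold change was 0.21 (SE 0.409) with all libraries and -0.48 (SE 0.154) without replicate 1 of *bmc1*Δ, and neither passed.

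*ght6* showed the widest scatter, with 244, 41 and 12 counts in *bmc1*Δ and 22, 20 and 47 counts in the h+ wild type. Its log2 fold change of 1.81 was larger than that of any other gene tested, but with an SE of 0.975 it did not pass (adjusted *p* = 0.702), and it was -0.05 (SE 0.582) without replicate 1. *ght4* was at 66.8, 39.4 and 34.3 CPM in *bmc1*Δ and 43.4, 36.7 and 44.8 CPM in the h+ wild type, and *ght3* at 7.10, 3.36 and 3.56 CPM against 5.16, 2.98 and 2.65 CPM. Both overlapped between the groups.

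Replicate 1 of *bmc1*Δ was thus the highest of its group for 7 members, all but *ght7*. Its log2 differences from the mean of its sisters were 1.51 for *ght1*, 1.03 for *ght3*, 0.86 for *ght4*, 1.03 for *ght5* and 3.29 for *ght6*, and 0.22 and 0.28 for *ght2* and *ght8*. Of 4 enzyme genes listed here as glucose-repressed, a grouping not tested in these data, *inv1* (invertase) and *gld1* (glycerol dehydrogenase) were high in the same culture. *inv1* was at 52.9 CPM against 16.4 and 10.9 CPM in its sisters and *gld1* at 177 CPM against 70.1 and 57.3 CPM. *fbp1* was at 15.4 CPM against 9.81 and 8.69 CPM, and *adh4* differed little, at 180 CPM against 165 and 173 CPM. *mfm2* was high in this culture, with 13.6 CPM against 1.93 and 1.85 CPM, as it was in replicate 2 of the h+ wild type. The part of the state of this culture in the result was not tested.

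*ght7* had 25, 25 and 30 counts in *bmc1*Δ and 37, 46 and 37 counts in the h+ wild type. The groups did not overlap, and the log2 fold change of -0.50 (SE 0.168) had an unadjusted *p* of 0.0206 and an adjusted *p* of 0.636. *ght2* was at 235, 199 and 204 CPM in *bmc1*Δ, against 262, 227 and 227 CPM in the h+ wild type, each *bmc1*Δ culture below the wild-type culture of the same number. Its log2 fold change was -0.17 (SE 0.0830, adjusted *p* = 0.686). Cultures of the same number in these groups deviated together. So did replicate 2 of one group and replicate 3 of the other, so a 1-to-1 pairing is not established. With the replicate number as a block, the log2 fold change was again -0.17 with an adjusted *p* of 0.0142. *ght2* was the single member for which the block changed whether it passed. In that fit 1.19% of the genes tested were higher and 2.02% lower, and none was called with the 2-fold limit. *ght8* was at 1439, 1185 and 1179 CPM in *bmc1*Δ and at 1452, 1371 and 1377 CPM in the h+ wild type (log2 fold change -0.15, SE 0.0836).

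Whether the family responded differently to the deletions was tested as the difference between the effect of *thc1*Δ and the effect of *bmc1*Δ, each against its own wild type. *ght5* passed with a difference of 1.89 on the log2 scale (SE 0.313, adjusted *p* = 0.00355), and *ght2* with 0.55 (SE 0.138, adjusted *p* = 0.0281). These were 2 of 8 members, where 4.95% of the 6279 genes tested had a higher effect in *thc1*Δ, and with the 2-fold limit 1 of 8, where the share of genes was 0.621%. *ght1* had a difference of 0.72 (SE 0.505, adjusted *p* = 0.413), and of 1.41 (SE 0.222, adjusted *p* = 0.00288) without replicate 1 of *bmc1*Δ, so that 2 members were called without that culture. For *ght2* the adjusted *p* was 0.0545 to 0.0674 without any one of 8 libraries. The other 5 members did not pass, with differences between -1.02 (SE 1.33) for *ght6* and 0.52 (SE 0.277) for *ght7*.

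**Figure D4:**
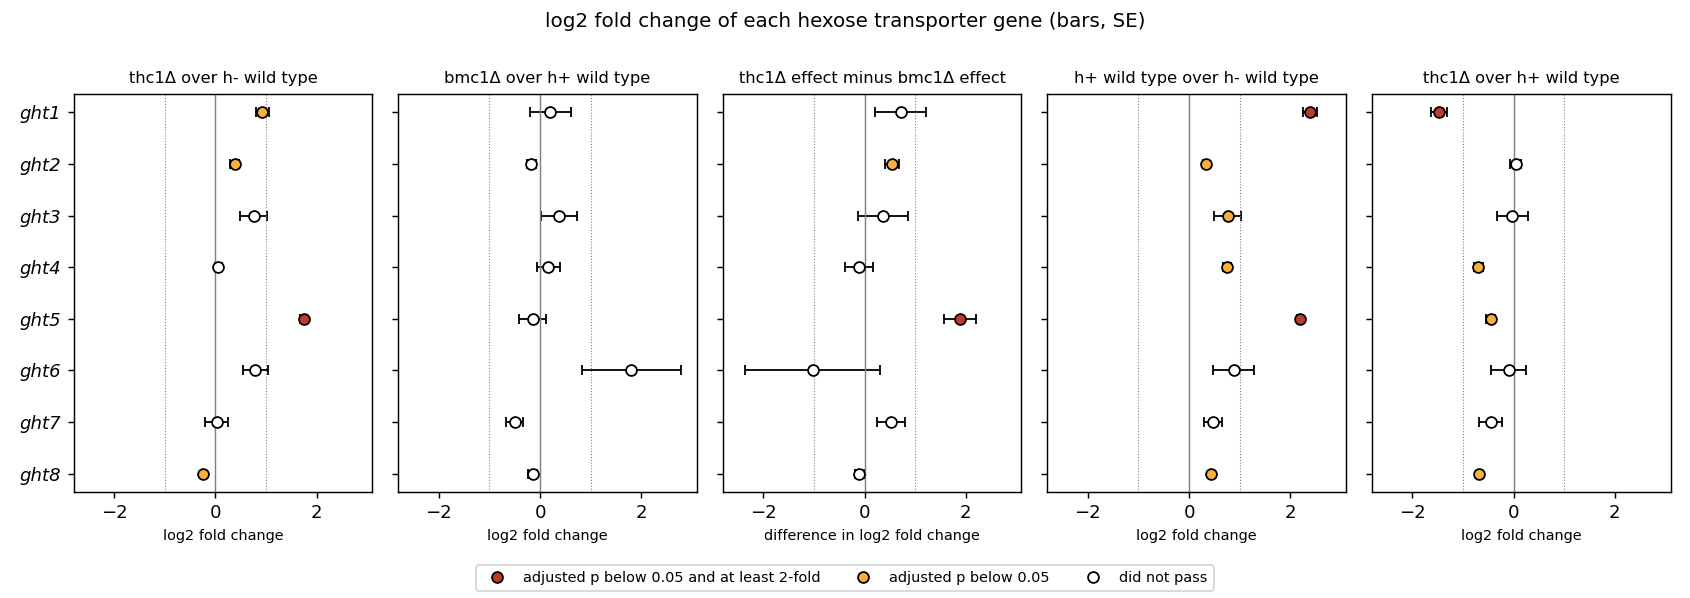
log2 fold change and SE of each member in 5 comparisons, from edgeR. Red points passed at an adjusted *p* below 0.05 with at least a 2-fold change, orange points passed without that change, and white points did not pass; dotted lines mark 2-fold. *ght5* lies at 1.74 for *thc1*Δ over the h- wild type and at -0.45 for *thc1*Δ over the h+ wild type.

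The levels above raise the question of which wild type a deletion is set against, so the h+ wild type was compared with the h- wild type. The comparison shares its libraries with those above and is not independent of them. *ght1* was 5.25-fold and *ght5* 4.57-fold higher in the h+ wild type. *ght2*, *ght3*, *ght4* and *ght8* were higher by smaller factors of 1.26, 1.70, 1.68 and 1.34. In all, 6 of 8 members were higher, where 22.2% of the 6232 genes tested were, and none was lower. With the 2-fold limit there were 2 of 8, where 1.85% of genes were higher. Members had a median log2 fold change of 0.76, and all genes one of 0.00.

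The 3 h+ cultures had 51.1, 35.3 and 43.1 CPM of *ght1*, against 7.56, 8.13 and 8.96 CPM in the h- cultures. The groups were wide apart (log2 fold change 2.39, SE 0.133, adjusted *p* = 6.04e-06). *ght5*, at 444, 367 and 407 CPM in h+ and 85.7, 90.2 and 90.9 CPM in h-, gave a log2 fold change of 2.19 (SE 0.0672, adjusted *p* = 3.11e-07). *ght8* gave 0.42 (SE 0.0396, adjusted *p* = 0.000102), *ght4* 0.75 (SE 0.0738, adjusted *p* = 0.000137) and *ght2* 0.34 (SE 0.0553, adjusted *p* = 0.00188), all without overlap. *ght3*, whose groups overlapped, was just inside the threshold (log2 fold change 0.77, SE 0.265, adjusted *p* = 0.0454), and its adjusted *p* was up to 0.140 with a library left out. *ght7* was just outside it (0.47, SE 0.169, adjusted *p* = 0.0504), and *ght6* did not pass (0.88, SE 0.404).

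Set against the h+ wild type, *thc1*Δ gave a different picture of the family. 4 of 8 members were lower, where 8.26% of the 6235 genes tested were lower, and none was higher. *ght1* was at 13.6, 14.8 and 18.5 CPM in *thc1*Δ and 51.1, 35.3 and 43.1 CPM in the h+ wild type, with no overlap. Its log2 fold change of -1.47 (SE 0.154, adjusted *p* = 0.00127) made it the 1 member called lower with the 2-fold limit, against 0.994% of genes. *ght4* (-0.69, SE 0.0913, adjusted *p* = 0.00366) and *ght8* (-0.67, SE 0.0557, adjusted *p* = 0.000541) were lower too. *ght5* was lower by 0.45 on the log2 scale (log2 fold change -0.45, SE 0.0911, adjusted *p* = 0.0182), with all *thc1*Δ cultures below all h+ cultures. *ght5* no longer passed without replicate 2 or replicate 3 of *thc1*Δ (adjusted *p* = 0.0580 and 0.0556) and in a fit over all 12 libraries (adjusted *p* = 0.153). *ght2* (0.04, SE 0.108), *ght3* (-0.02, SE 0.311), *ght6* (-0.10, SE 0.351) and *ght7* (-0.45, SE 0.226) did not pass. So *ght5* in *thc1*Δ was above one wild type and below the other, and *ght8* was below both. This comparison crosses mating type, descent and *his3* as well as *thc1*, and the *ade6* allele may differ too. These cannot be told apart.

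Over the 12 libraries, levels of several members moved together. The Pearson correlation of log2 CPM was 0.95 between *ght1* and *ght4* and 0.89 between *ght1* and *ght5*, but 0.05 between *ght2* and *ght8* and 0.02 between *ght2* and *ght7*. These values describe 12 libraries in 4 groups, so differences between strains and single outlying cultures both enter them. Replicate 1 of *bmc1*Δ had the highest level of *ght1*, *ght4*, *ght5* and *inv1* (87.8, 66.8, 558 and 52.9 CPM). Correlations within groups were not computed. The genes whose profile was most like that of *ght5* were *mug115* (r = 0.98), *gpa2* (0.98), *nep2* (0.98), the non-coding RNA SPNCRNA.1558 (0.97) and *psd2* (0.97). *gpa2* encodes the G protein alpha subunit that passes the glucose signal on to cyclic AMP. *inv1* (0.98) was the gene most like *ght4* and *gad8* (0.95) the gene most like *ght2*, both named here after their values were seen.

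Of 47 genes that act in glucose signalling, glucose repression, sugar use and the traffic of transporters, all were found and tested. In *thc1*Δ against the h- wild type 10 were higher and 5 lower, where 10.0% and 11.1% of all genes tested were, and the list had a median log2 fold change of 0.06. Among the 6 glucose repression regulators, 3 were higher and none lower, and 2 were called higher, where 0.754% of all genes were. *scr1*, the repressor of *ght5*, was at 70.8, 66.2 and 80.1 CPM in *thc1*Δ and at 34.6, 31.9 and 33.2 CPM in the h- wild type. The groups did not overlap (log2 fold change 1.12, SE 0.0698, adjusted *p* = 6.51e-05). The transcript of the repressor and that of *ght5* were thus both higher. *rsv1*, a zinc finger regulator, had 24, 54 and 89 counts in *thc1*Δ and 12, 22 and 9 counts in the h- wild type (log2 fold change 2.00, SE 0.507, adjusted *p* = 0.0287). *ssn6*, a subunit of the corepressor that works with Tup11 and Tup12, was higher by 0.46 (SE 0.0542, adjusted *p* = 0.00114).

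In the cyclic AMP and protein kinase A pathway, 4 of 10 genes were higher in *thc1*Δ and 1 was lower. *gpa2* (log2 fold change 0.33, SE 0.0389, adjusted *p* = 0.00118) and the kinase gene *pka1* (0.41, SE 0.0672, adjusted *p* = 0.00521) were higher, and the glucose receptor gene *git3* was lower (-0.16, SE 0.0392, adjusted *p* = 0.0270). Of 2 hexose kinases, *hxk2* was higher (0.16) and *hxk1* lower (-0.16). Of 4 enzymes listed as glucose-repressed, 1 was higher and 1 lower, of 3 galactose genes 1 was higher, and of 3 genes for other sugar and polyol transport 2 were lower. None of 4 AMP-activated kinase genes, 6 TORC2 and Gad8 genes, 3 phosphatase genes and 6 arrestin and ubiquitin ligase genes passed in *thc1*Δ against the h- wild type.

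In *bmc1*Δ against the h+ wild type none of the 47 genes passed in edgeR. With the replicate number as a block, a fit added for this list after the data were seen, 1 was higher and 2 were lower, none by 2-fold. These were 2.13% and 4.26% of the list, where 1.19% and 2.02% of all genes tested were higher and lower. *aly2*, an arrestin gene, was higher (log2 fold change 0.24, SE 0.0292, adjusted *p* = 0.00805), and *ssn6* (-0.25, SE 0.0282, adjusted *p* = 0.00659) and *scr1* (-0.30, SE 0.0531, adjusted *p* = 0.0297) were lower. In the difference between the deletion effects 3 were higher and 1 lower, where 4.95% and 5.48% of all genes were. *scr1* was called higher at 1.41 (SE 0.233, adjusted *p* = 0.00344), where 0.621% of all genes were. In the h+ wild type against the h- wild type 26 were higher and 3 lower, where 22.2% and 19.3% of all genes were. The higher genes included 9 of 10 cyclic AMP genes, 4 of 6 glucose repression regulators and 3 of 4 enzymes listed as glucose-repressed. The 5 called were *rsv1* (log2 fold change 3.89), *gld1* (2.18), *inv1* (1.80), *scr1* (1.46) and *gal10* (1.09), all higher, where 1.85% of all genes were called higher. In *thc1*Δ against the h+ wild type 1 was higher and 8 were lower, where 5.28% and 8.26% of all genes were. *rsv1* (-1.90), *inv1* (-1.33) and *gld1* (-1.22) were called lower, where 0.994% of all genes were. As for *ght5* and *ght1*, *scr1*, *rsv1* and *gld1* had their lowest mean in the h- wild type, with 33.3, 0.386 and 19.3 CPM, a middle one in *thc1*Δ, with 72.4, 1.53 and 37.8 CPM, and a higher one in the h+ wild type, with 91.6, 5.73 and 87.6 CPM. Of the other enzymes listed as glucose-repressed, *inv1* had the same order (5.21, 7.20 and 18.1 CPM). *adh4* (197, 144 and 180 CPM) and *fbp1* (5.77, 5.70 and 9.93 CPM) did not.

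**Figure D5:**
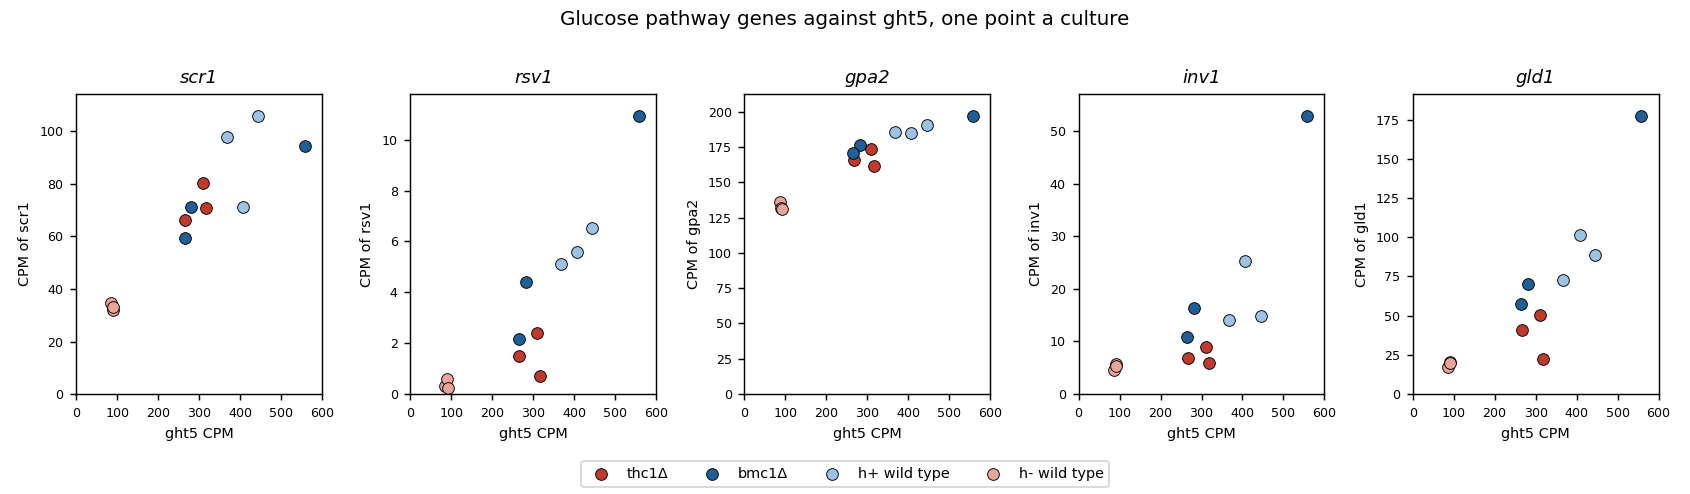
CPM of the regulators *scr1*, *rsv1* and *gpa2* and the enzymes *inv1* and *gld1* (vertical axes, linear from 0) against CPM of *ght5* (horizontal axes), with 1 point for each of the 12 cultures, coloured by strain. The h- wild type lies at the low end of both axes in every panel and replicate 1 of *bmc1*Δ at the highest *ght5* value, 558 CPM. The 5 genes were picked from the 47 listed. Of those 47, 26 were higher and 3 lower in the h+ than in the h- wild type. All the genes shown but *gpa2* were called there, and *gpa2* was among the genes most like *ght5*. *adh4*, not shown, was among the 3 lower, at 180 CPM in h+ and 197 CPM in h-.

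The 3 nearest protein-coding genes on each side of each member were 36 genes besides the members, of which 31 were tested in *thc1*Δ against the h- wild type. There 7 were higher and 5 lower, where 10.0% and 11.1% of all genes were. Called higher were 3, where 0.754% of all genes were: *gcd1* near *ght1* and *ght8* (log2 fold change 1.02), and *str3* (1.65) and *hhy1* (2.18) near *ght3*. In the h+ wild type against the h- wild type, 18 of 32 tested were higher and 4 lower, where 22.2% and 19.3% of all genes were. Called higher were *shu1* (3.004), next to *ght3*, *gcd1* (2.27), *str3* (1.67), *frp1* (1.53), next to *ght4*, *hhy1* (1.39) and SPBPB8B6.02c (1.18), next to *ght7*. SPAPJ695.02, near *ght3*, was called lower (-2.31). Of all genes tested there, 1.85% were called higher and 0.963% lower. *str3* and *shu1* are known for heme uptake and *frp1* for ferric reduction. Against the h+ wild type, *thc1*Δ had 1 of 32 higher and 13 lower, where 5.28% and 8.26% of all genes were. SPAPJ695.02 was called higher (3.05), and *shu1* (-3.39), SPBPB8B6.02c (-1.33) and *gcd1* (-1.25) were called lower. Of all genes, 0.449% were called higher and 0.994% lower. In the difference between the deletion effects 2 were higher and 4 lower, where 4.95% and 5.48% of all genes were. *hhy1* was called higher (2.22), where 0.621% of all genes were. In *bmc1*Δ against the h+ wild type none of 32 passed, without or with the replicate block.

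Non-coding RNAs that overlap members bear on the counts, since the sources used here did not give whether the counting used the strand. *ght5* has none in the annotation. *ght1* is overlapped on the other strand by SPNCRNA.1121, which had 15 to 64 counts a library against 284 to 3152 for *ght1*. SPNCRNA.1318, on the other strand of *ght4*, had 342, 485 and 709 counts in *thc1*Δ, 2498, 1004 and 1050 in *bmc1*Δ, 1584, 1037 and 1223 in the h+ wild type and 341, 414 and 354 in the h- wild type. Those counts are of the size of the counts of *ght4* itself (816 to 2399), and reads of the pair cannot be told apart if strand was not used. SPNCRNA.1318 was higher in the h+ than in the h- wild type (log2 fold change 1.80, SE 0.186, adjusted *p* = 0.000180), as *ght4* was. SPNCRNA.1319, also on the other strand of *ght4*, had 332 to 543 counts a library and was higher in *thc1*Δ than in the h- wild type (0.32, SE 0.0904, adjusted *p* = 0.0425) and in the h+ than in the h- wild type (0.60, adjusted *p* = 0.000460). For *ght6*, SPNCRNA.1118 on the other strand had 1344 to 1862 counts a library, against 11 to 244 for *ght6*. RNAs that overlap *ght2*, *ght3*, *ght7* and *ght8* were not analysed here.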

How the data were processed

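Ribosomal RNA was removed before stranded single-end library preparation, and the authors aligned trimmed reads to ASM294v2 with STAR 2.5.2b and analysed them with DESeq2 1.22.2. The deposited values are whole-number counts per gene, not normalised. Counting tool, annotation and use of strand are not stated in these sources. The labels do not say whether cultures came from separate colonies, so *p* values measure the spread between these cultures, and every replicate pair differed by more than counting noise.

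Genes were tested with edgeR 4.0.16 (glmQLFit and glmQLFTest, R 4.3.3) on the whole table, with TMM normalisation and filterByExpr (minimum count 10), on the 6 libraries of a comparison, or on 12 for the difference between deletion effects. All 8 members passed the filter in every comparison. *p* values were adjusted by Benjamini and Hochberg over all genes tested. A gene passed at an adjusted *p* below 0.05 and was called when its absolute log2 fold change was also at least 1. The SE is the log2 fold change divided by the square root of F. Correlations used log2 CPM with a prior count of 2. Alternatives were DESeq2 1.42.0, limma-voom (limma 3.58.1), other size factors, filters and libraries.

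Names, gene order, exon lengths and sequence sharing come from RefSeq's ASM294v3, in which 6846 of 7004 identifiers matched by locus tag, 15 by synonym and 143 did not. The builds differ, so no coordinates or sequences are given. Named are the 8 members, list genes and neighbours that were called or stand beside a member, and the 5 genes most like a member called in *thc1*Δ. Members and lists were chosen with earlier results of these data known. Replicate numbers in *bmc1*Δ and the h+ wild type deviated together (r = 0.48, 0.28 and 0.23), and those in *thc1*Δ and the h- wild type did not (r = -0.000934, 0.00460 and -0.0775). In *bmc1*Δ and the h+ wild type, unlike numbers gave r = 0.166 and 0.199 between replicates 2 and 3. With replicate 1 on 1 side they gave -0.352 to -0.297. The numbers were therefore not shown to pair 1 to 1.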

Additional observations from a re-analysis of the deposited data

Results flagged for a closer look

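For *ght5* and *ght2* the effect of *thc1*Δ differed from that of *bmc1*Δ by a test of the difference itself over all 12 libraries in edgeR. *ght5* was higher by 1.89 on the log2 scale (SE 0.313, adjusted *p* = 0.00355), with all 3 *thc1*Δ cultures above their wild type and 1 of 3 *bmc1*Δ cultures above theirs. The deletion strains themselves overlapped in *ght5*, at 266 to 317 CPM in *thc1*Δ and 265 to 558 CPM in *bmc1*Δ. Their wild types differed, with *ght5* 4.57-fold higher in h+ than in h-. *ght2* was higher by 0.55 (SE 0.138, adjusted *p* = 0.0281), with all 3 *thc1*Δ cultures above their wild type and each *bmc1*Δ culture below the wild-type culture of the same number. As groups, *bmc1*Δ and the h+ wild type overlapped in *ght2*, and the pairing by number is not established. The difference for *ght2* no longer passed in 8 of 20 alternatives.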

How the results depend on the processing

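Of 631 alternative log2 fold changes of single members, 601 stayed on their side of the threshold, 23 no longer passed, 7 newly passed, and 0 values that had passed changed sign. Values that had not passed could change sign, as *ght1* in *bmc1*Δ did (-0.48 to 0.50 with single libraries left out). Without a limit on the fold change, 4 members counted in *thc1*Δ against the h- wild type, 2 in the difference between deletion effects, 6 in the h+ against the h- wild type and 4 in *thc1*Δ against the h+ wild type. With the 2-fold limit tested inside the model, 0 counted in the difference and 0 in *thc1*Δ against the h+ wild type. Leaving out single libraries gave 1 to 2 called members in *thc1*Δ against the h- wild type and 1 to 2 in the difference. With the replicate number as a block the counts of called members were 1, 0, 1, 2 and 1 in the 5 comparisons, as without it. The block changed whether a member passed in 1 of 40 cases, that of *ght2* in *bmc1*Δ. The 32 group means of CPM per kb moved by less than 1 SD with library totals. Without replicate 1, an alternative added after the data were seen, the mean CPM in *bmc1*Δ was 30.9 for *ght1* (49.9 with it), 273 for *ght5* (368 with it) and 0.775 for *ght6* (2.78 with it). With 50-nt windows the shares found elsewhere were 5.39% for *ght1*, 11.8% for *ght3*, 5.65% for *ght4*, 29.6% for *ght5*, 2.01% for *ght6* and 24.7% for *ght8*. Counts of promoter motifs were not run. Depth limits *ght6* and *ght7*, with 11 to 47 counts a library apart from 244 of *ght6* in replicate 1 of *bmc1*Δ.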
